A study of Mus musculus with 8 samples.

Results

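Voltage-gated calcium channel genes were examined in ATAC-seq peak lists of cultured mouse cortical neurons. The 9 genes were *Cacna1c* and *Cacna1d*, which encode the pore-forming subunits of L-type channels, *Cacna1a* (P/Q-type), *Cacna1b* (N-type), *Cacna1e* (R-type), *Cacna1g*, *Cacna1h* and *Cacna1i* (T-type), and *Cacna2d1*, which encodes an auxiliary subunit. Peaks of the 4 lists that overlap were merged into regions, and a region was counted for a gene when it overlapped the RefSeq gene body or lay within 50 kb of it. Of 62023 regions in all, 113 met this rule, 50 of them at the 2 L-type genes and 63 at the other 7 genes.

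ATAC-seq reads open chromatin through the cuts of the Tn5 transposase. The neurons were cultured from E16.5 embryos and formed 4 groups of 2 libraries: cKO KCl, cKO basal, WT KCl and WT basal. The cKO genotype is Brg1-cko (BAF53bCre Brg1F/F), in which a Cre driven by a neuronal BAF subunit gene deletes Brg1, the motor subunit of BAF remodelling complexes, so that other cells of a culture would keep it. The labels give the other genotype as Brg1 WT and do not say which of these alleles it carried. KCl groups received 50 mM KCl for 1 h on day 6 in vitro, after 1 µM TTX, a sodium channel blocker, and 100 µM APV, an NMDA receptor blocker, on day 5. Whether basal cultures received TTX and APV is not stated. Each group has 1 deposited list for its 2 libraries, so no spread between replicates can be given and no test compares the groups.

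Voltage-gated calcium channels open when the membrane depolarises and let calcium into the cell. In neurons, L-type channels carry much of the calcium that links depolarisation to transcription, whereas P/Q- and N-type channels serve transmitter release at presynaptic terminals. T-type channels open at low voltages and shape rhythmic firing. The auxiliary subunit encoded by *Cacna2d1* brings pores to the cell surface and binds gabapentin. KCl acts on neurons by depolarising them and opening these channels.

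The lists differed in length, with 25048 regions in cKO KCl, 19870 in cKO basal, 19628 in WT KCl and 33349 in WT basal, and this touches every count below. Background pileup, the most frequent local fragment count behind a peak, was 8.36, 9.47, 8.23 and 9.30 fragments in the same order, and differed by at most 1.15 times. Of 10 neuron markers, 6, 6, 5 and 6 had a peak within 1 kb of a gene end, *Map2*, *Tubb3*, *Syn1* and *Neurod6* in each list. The neuron markers *Rbfox3*, *Dcx* and *Gap43* had no such peak in any list. Of 4 inhibitory neuron markers, 2, 1, 1 and 1 had one, and of 4 oligodendrocyte markers *Olig1* alone in each list. Of 4 microglia and 4 vascular markers, 0 had one in any list. The astrocyte markers *Gfap*, *Slc1a3* and *Aldh1l1* had one in WT basal and in no other list, 3 of 4 markers against 0 of 4, and their part in the channel gene counts was not tested. The share of all protein-coding genes with a peak at a gene end is not given here, so the marker counts have no background beside them. *Smarca4*, which encodes Brg1, held 2, 2, 2 and 1 regions in its body or within 1 kb, and since the deleted part is not given these do not check the genotype.

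RefSeq transcription starts served to locate the channel gene promoters. The table of start windows, each running from 250 bases before to 50 bases after a start on GRCm38.p6, held 9 windows for 6 of the 9 genes, and none for *Cacna1a*, *Cacna1g* or *Cacna1h*. In 4 of the 9, one each for *Cacna1c*, *Cacna1d*, *Cacna1b* and *Cacna2d1*, at least 1 list had a peak within 1 kb of the start. These windows are shown because their starts are the ones with a nearby peak, although at *Cacna1c* the peak itself, and at *Cacna1d* both summits, lie upstream of the printed bases. Capitals mark the GC box, GGGCGG or its reverse complement CCGCCC, the recognition letters of Sp1-type factors.
Cacna1c, GC-rich start, chr6:119108446-119108745, minus strand: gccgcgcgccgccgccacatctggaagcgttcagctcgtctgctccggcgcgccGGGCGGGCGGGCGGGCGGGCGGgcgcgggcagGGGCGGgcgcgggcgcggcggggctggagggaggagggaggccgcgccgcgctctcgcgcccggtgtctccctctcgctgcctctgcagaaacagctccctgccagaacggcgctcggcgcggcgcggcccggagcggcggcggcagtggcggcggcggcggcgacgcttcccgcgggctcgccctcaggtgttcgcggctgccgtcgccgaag
Cacna1d, GC-rich start, chr14:30353437-30353736, minus strand: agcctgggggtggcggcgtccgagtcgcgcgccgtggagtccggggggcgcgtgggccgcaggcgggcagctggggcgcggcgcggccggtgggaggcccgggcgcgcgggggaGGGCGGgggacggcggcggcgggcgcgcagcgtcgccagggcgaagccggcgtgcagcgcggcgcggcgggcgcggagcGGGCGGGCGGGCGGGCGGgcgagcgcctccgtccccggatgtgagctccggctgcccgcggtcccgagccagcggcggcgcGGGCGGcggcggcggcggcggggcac
Cacna1b, chr2:24763103-24763402, minus strand: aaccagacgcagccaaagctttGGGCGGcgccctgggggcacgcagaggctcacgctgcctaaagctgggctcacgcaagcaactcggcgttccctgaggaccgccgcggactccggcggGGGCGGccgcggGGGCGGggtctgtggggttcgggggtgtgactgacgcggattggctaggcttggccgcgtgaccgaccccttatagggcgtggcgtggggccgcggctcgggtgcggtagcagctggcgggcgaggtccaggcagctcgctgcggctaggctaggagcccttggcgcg
Cacna2d1, chr5:15934441-15934740, plus strand: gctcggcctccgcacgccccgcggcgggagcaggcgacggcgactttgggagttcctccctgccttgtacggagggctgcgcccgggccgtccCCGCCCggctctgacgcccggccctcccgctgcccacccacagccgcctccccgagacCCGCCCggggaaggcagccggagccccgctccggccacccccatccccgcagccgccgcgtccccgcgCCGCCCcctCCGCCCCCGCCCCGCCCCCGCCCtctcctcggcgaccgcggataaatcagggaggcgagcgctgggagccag

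Both L-type genes also have a RefSeq start farther upstream, at the edge of the annotated gene, and neither had a peak within 1 kb in any list. They are shown for contrast in base composition.
Cacna1c, upstream start, chr6:119196360-119196659, minus strand: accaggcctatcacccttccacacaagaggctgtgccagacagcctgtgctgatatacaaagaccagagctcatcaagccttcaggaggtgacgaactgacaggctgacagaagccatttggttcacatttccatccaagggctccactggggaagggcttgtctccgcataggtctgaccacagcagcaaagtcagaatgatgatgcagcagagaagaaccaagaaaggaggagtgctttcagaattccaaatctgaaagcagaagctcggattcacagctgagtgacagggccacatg
Cacna1d, upstream start, chr14:30491107-30491406, minus strand: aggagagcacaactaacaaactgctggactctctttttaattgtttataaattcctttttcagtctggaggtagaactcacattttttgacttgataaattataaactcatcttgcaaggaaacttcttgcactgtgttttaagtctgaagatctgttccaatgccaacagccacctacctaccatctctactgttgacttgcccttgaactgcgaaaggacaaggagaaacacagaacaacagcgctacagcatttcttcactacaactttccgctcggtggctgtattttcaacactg

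All 4 windows with a nearby peak held GC boxes, counted with overlaps as 6 in *Cacna1c*, 6 in *Cacna1d*, 3 in *Cacna1b* and 7 in *Cacna2d1*. The 5 windows without a peak held none. GC content was 81.3% in *Cacna1c*, 87.3% in *Cacna1d*, 72.3% in *Cacna1b* and 80% in *Cacna2d1*, against 51.3% at each of the other *Cacna1c* starts, 40.3% at the upstream *Cacna1d* start, 55.3% at *Cacna1e* and 62.7% at *Cacna1i*. The GC-rich L-type starts held 57 and 63 CpG dinucleotides, and the upstream ones 3 and 4. Over all 32851 RefSeq windows, 35.7% held a GC box, and a peak of any list lay within 1 kb of 77.8% of those with the box and 26.1% of those without.

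Both strands of the 9 windows were searched for 9 other motifs as well, and a match is no evidence that a factor binds. The cyclic AMP response element TGACGTCA, the site of CREB, occurred in 0 of 9 windows, against 1.79% of all windows, and its shorter form TGACG in 4 of 9, against 20.8%. The AP-1 letters TGANTCA occurred in 0 of 9, against 7.81%. The E-box CANNTG was found in 6 of 9 (72.3% of all windows), CCAAT in 3 of 9 (37.4%), and TATAAA in 1 of 9 (13.6%), the upstream *Cacna1d* start. The NRF1 site, the CArG box and the MEF2 site, the last of which serves a family of calcium-regulated factors, were in 0 of 9, against 0.971%, 1.63% and 3.19% of all windows.

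*Cacna1c* had a promoter peak in both cKO lists and in neither WT list. The region, chr6:119109073-119109502, lies 578 bp upstream of the GC-rich start at its nearest edge. Its fold over the local background, the authors' own value for each peak, was 3.26 in cKO KCl and 2.55 in cKO basal, which rested on 39 and 30 fragments at the summit. These peaks ranked at the 60.3rd percentile of cKO KCl folds and at the 19.2nd of cKO basal folds, so neither was strong for its list. Regions with a peak in exactly the 2 cKO lists made up 1.36% of all regions near protein-coding genes, and the channel genes had 3 among 113.

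*Cacna1d* had its promoter peak in cKO KCl and WT basal. The region, chr14:30353602-30354140, begins 116 bp upstream of the GC-rich start. The fold was 2.99 in cKO KCl and 2.76 in WT basal, on 27 and 29 fragments. cKO KCl and WT basal are the lists with the most peaks, and the WT basal peak was lost when every list was reduced to its 20229 peaks of lowest p-value, the length of the shortest list. The peaks at the *Cacna1c*, *Cacna1b* and *Cacna2d1* starts were all kept at that length.

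*Cacna1b*, the N-type pore, had a peak across its start in cKO KCl, cKO basal and WT KCl and none in WT basal. Folds in the region chr2:24762926-24763532 were 2.92, 3.01 and 3.03, on 36, 44 and 38 fragments. A second, weaker peak lay beside it in WT KCl alone, with a fold of 2.37.

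*Cacna2d1* had the strongest of the start peaks, at chr5:15934407-15935326. The fold was 3.95 in cKO KCl, 3.72 in cKO basal and 3.50 in WT basal, on 36, 38 and 35 fragments, and WT KCl had no peak there. These folds stood above 80% of all peaks of their list in each case, at percentiles of 80.6, 84.04 and 80.5.

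The summits at the L-type genes lay farther from the start than those of the other 2 genes. They were 850 and 710 bp upstream at *Cacna1c* in cKO KCl and cKO basal, and 323 and 490 bp upstream at *Cacna1d* in cKO KCl and WT basal. At *Cacna1b* they were 57, 14 and 118 bp upstream in cKO KCl, cKO basal and WT KCl. At *Cacna2d1* they were 151 and 131 bp upstream in cKO KCl and cKO basal, and lay inside the gene in WT basal, at -181 bp when upstream distances count as positive. With 2 genes on each side, this is a description of these loci.

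**Figure D1:**
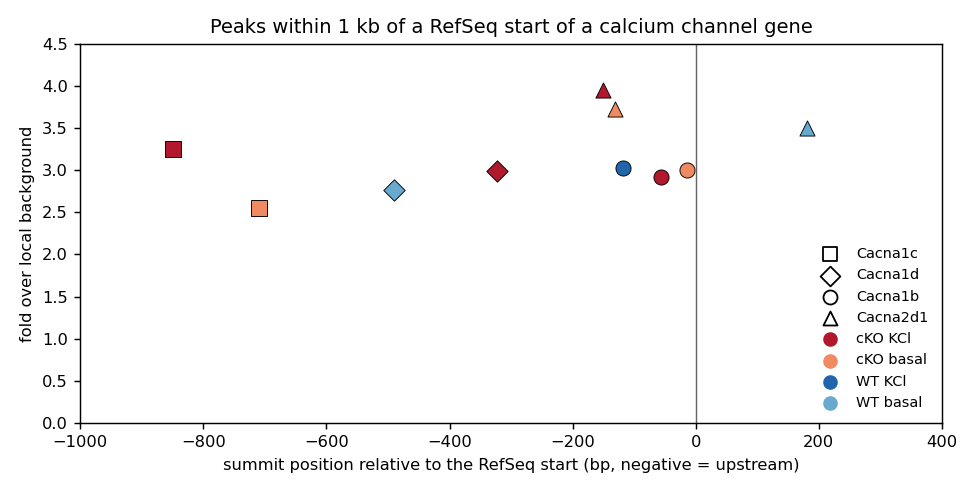
The x axis gives the summit of the strongest peak within 1 kb of a RefSeq start in bp, negative upstream, and the y axis its fold over local background, with the gene shown by symbol and the list by colour. *Cacna1c* and *Cacna1d* summits lie between 323 and 850 bp upstream, and *Cacna1b* and *Cacna2d1* summits closer to the start.

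Counted by list, 4 of the 9 starts had a peak within 1 kb in cKO KCl, 3 in cKO basal, 1 in WT KCl and 2 in WT basal. Among all 32851 RefSeq starts the shares were 35% in cKO KCl, 29.7% in cKO basal, 30.4% in WT KCl and 35.7% in WT basal. The exact 95% intervals of the channel gene shares, 13.7 to 78.8% in cKO KCl, 7.49 to 70.1% in cKO basal, 0.281 to 48.2% in WT KCl and 2.81 to 60.01% in WT basal, contain these backgrounds. They cover counting error only, as do all intervals here.

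Of the 3 genes without a start window, *Cacna1a* had a peak at the higher-coordinate end of its annotation, chr8:84639243-84639744, in cKO KCl, cKO basal and WT basal. Folds were 3.90, 3.24 and 4.29, on 54, 46 and 69 fragments, and WT KCl had no peak. *Cacna1g* had a peak of fold 2.43 at its higher-coordinate end in cKO KCl alone, at chr11:94473327-94473729. *Cacna1h*, *Cacna1e* and *Cacna1i* had none at a start or annotated end in any list. The table gives no strand for *Cacna1a*, *Cacna1g* and *Cacna1h*, so these ends are not assigned to start or finish of transcription.

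Within 1 kb of an annotated end of any protein-coding gene lay 15 of the 113 regions (13.3%), against 22.8% of all 62023 regions. By position, 69 (61.1%) lay inside the gene away from any gene end, 27 (23.9%) in the flanks, 10 at the end of another gene, 5 at a start of the channel gene and 2 at an annotated end of it. Exon and intron classes were not analysed here. L-type regions were inside the gene in 37 of 50 cases (74%), and those of the other genes in 32 of 63 (50.8%). The gene body made up 610 kb of the 710 kb window at *Cacna1c* and 451 of 551 kb at *Cacna1d*. At the other genes it ranged from 62.1 of 162 kb at *Cacna1h* to 494 of 594 kb at *Cacna1e*. The shares were not adjusted for this, and no share over all regions is given here. Other protein-coding genes lay within 50 kb of 53 of the 113 regions, including all 7 of *Cacna1g* and all 8 of *Cacna1h*, and of 0 of the 9 *Cacna1e* and 0 of the 4 *Cacna2d1* regions.

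The 3 regions with a peak in all 4 lists each lay at the end of a neighbour. At *Cacna1d* it was the end of *Dcp1a*, which encodes an activator of mRNA decapping and overlaps the upstream part of the annotated *Cacna1d* gene (chr14:30479283-30479930). Its fold was 6.73 in cKO KCl, 5.35 in cKO basal, 4.22 in WT KCl and 6.02 in WT basal, on 62, 55, 38 and 61 fragments. The paralog *Dcp1b* stands in the same position at *Cacna1c* (chr6:119175072-119175742), with folds of 4.28, 2.77, 3.47 and 3.59 in the same order of lists. For both L-type genes, the peak of highest fold in the window thus lay at an end of a pair of paralogous decapping genes.

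The third was the end of *Atf4*, a transcription factor gene of the stress response, 31.7 kb from *Cacna1i* (chr15:80254864-80255518), with folds of 4.57, 3.87, 4.06 and 4.34. Near *Cacna1a*, the window takes in *Ier2*, a gene transcribed rapidly after activity. A region at an end of *Ier2*, chr8:84662623-84662940, had folds of 2.60 in cKO KCl and 2.24 in WT basal, and another, chr8:84661621-84661820, had a peak of fold 2.53 in cKO basal alone.

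Away from gene ends, the region of highest fold lay inside *Cacna1d*, at chr14:30056101-30056446. Its fold was 4.09 in cKO KCl, 3.49 in WT KCl and 3.72 in WT basal, on 50, 42 and 52 fragments, and cKO basal had no peak. *Cacna1d* also held chr14:30342291-30342838 in the same 3 lists, with folds of 3.06, 2.67 and 2.53, and chr14:30110915-30111286 in both cKO lists alone, with 3.19 in cKO KCl and 2.62 in cKO basal. Inside *Cacna1c*, chr6:118845897-118846290 had folds of 2.72 in cKO KCl, 2.51 in WT KCl and 2.93 in WT basal, and none in cKO basal.

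**Figure D2:**
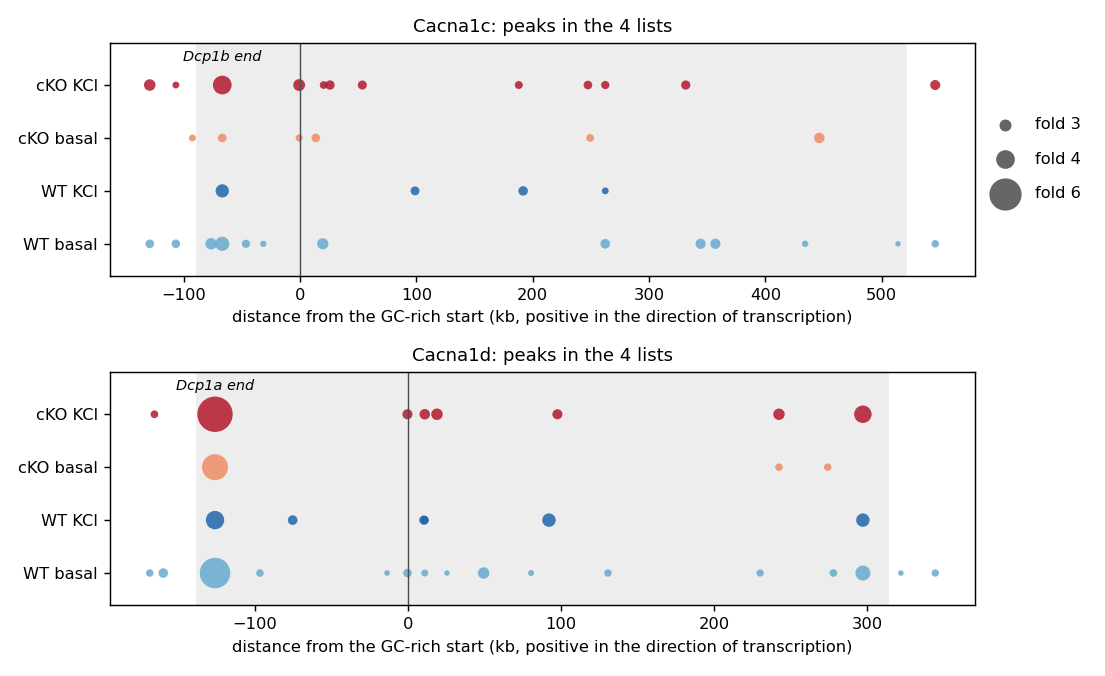
Each row is a list and each disc a peak, placed by its distance in kb from the GC-rich start of *Cacna1c* (upper panel) or *Cacna1d* (lower panel), positive in the direction of transcription, with the disc growing with the fold over background and the annotated gene shaded. Discs stand in all 4 rows at the *Dcp1b* and *Dcp1a* ends, and few other positions recur in more than 2 rows.

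At the other pores, *Cacna1b* had its highest fold at an intragenic region, 3.27 in cKO KCl and 2.88 in WT basal (chr2:24678858-24679258). *Cacna1e* had 9 regions, each in 1 list, led by a WT basal peak of fold 3.31 (chr1:154416911-154417177). The 7 *Cacna1g* and 8 *Cacna1h* regions were each in 1 list as well, with the highest folds in WT KCl, 3.08 at chr11:94363949-94364305 and 3.47 at chr17:25352501-25352752. These 2 regions lay 44.1 and 21.5 kb outside the gene bodies. Inside *Cacna1a*, chr8:84565901-84566478 was the single channel gene region with a peak in exactly the 2 WT lists, with folds of 2.50 in WT KCl and 2.27 in WT basal. Regions of this kind made up 1.89% of all regions near protein-coding genes. Inside *Cacna2d1*, chr5:15985964-15986274 had folds of 2.89 in cKO KCl and 3.21 in WT basal.

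Peaks near the channel genes were of low to middling fold for their list, with 14 of 46 above the list median in cKO KCl, 11 of 21 in cKO basal, 9 of 30 in WT KCl and 22 of 57 in WT basal. The median fold was 2.89 over 46 regions in cKO KCl (list median 3.08), 2.90 over 21 in cKO basal (2.89), 2.88 over 30 in WT KCl (3.03) and 2.62 over 57 in WT basal (2.82). Of the 113 regions, 88 had a peak in 1 list (77.9%, 95% interval 69.1 to 85.1) and 3 in all 4 (2.65%, 0.551 to 7.56). Among all 52942 regions near protein-coding genes, 69.1% were in 1 list and 13.1% in all 4. Regions of 1 gene share a locus, and intervals that treat them as separate are too narrow to that extent.

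**Figure D3:**
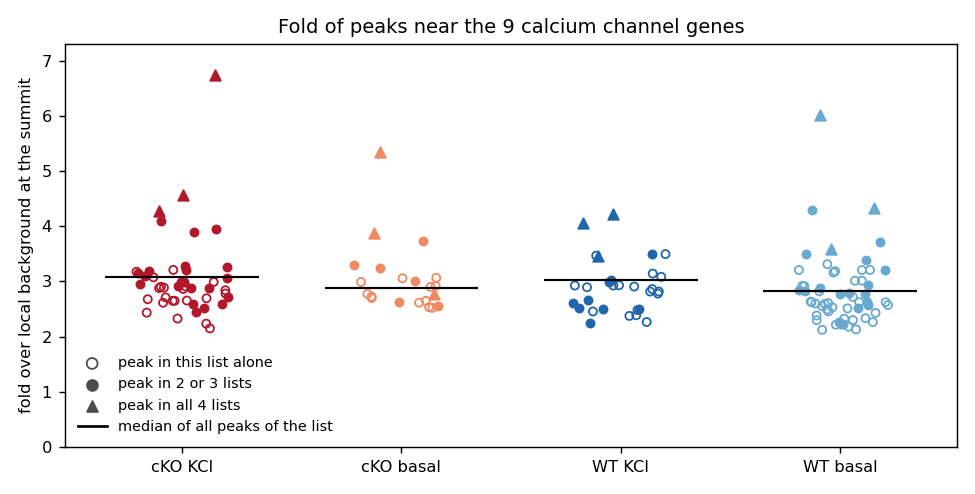
The y axis gives the fold over local background at the summit of each peak near the 9 genes, by list, with open circles for regions in that list alone, filled circles for 2 or 3 lists, triangles for all 4 lists and a line at the median of all peaks of the list. The triangles reach 6.73 in cKO KCl, and the open circles stay at or below 3.49.

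At the 3 genes with the most regions, cKO KCl and WT basal, the longest lists, held more of them than cKO basal and WT KCl. *Cacna1c* had 12 in cKO KCl, 6 in cKO basal, 4 in WT KCl and 13 in WT basal. *Cacna1d* had 8, 3, 6 and 16 in the same order, and *Cacna1a* 9, 4, 5 and 10. The order did not follow list length throughout, since cKO basal, slightly longer than WT KCl, held fewer than it at *Cacna1d* and *Cacna1a*. At equal list length *Cacna1c* had 9, 6, 4 and 8, *Cacna1d* 7, 3, 6 and 5, and *Cacna1a* 9, 4, 5 and 3, so that WT basal no longer led at any of them.

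The other pores had fewer regions. *Cacna1b* had 4, 3, 3 and 5 in cKO KCl, cKO basal, WT KCl and WT basal, *Cacna1i* 4, 2, 2 and 4, *Cacna1e* 2, 1, 2 and 4, and *Cacna1g* 3, 1, 2 and 1. *Cacna1h* stood apart in order, with 2, 0, 5 and 1, the most in WT KCl. A count of 0 allows up to 3 by counting error. The WT KCl regions of *Cacna1h* lay 46.1, 35.6, 21.5 and 3.17 kb outside the gene body, apart from chr17:25405684-25405920 inside it. Those of *Cacna1g* lay 44.1 and 32.5 kb outside. *Cacna2d1* had 2, 1, 1 and 3. Counts this small carry a wide counting error, and the order of the lists at these genes is only a description.

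**Figure D4:**
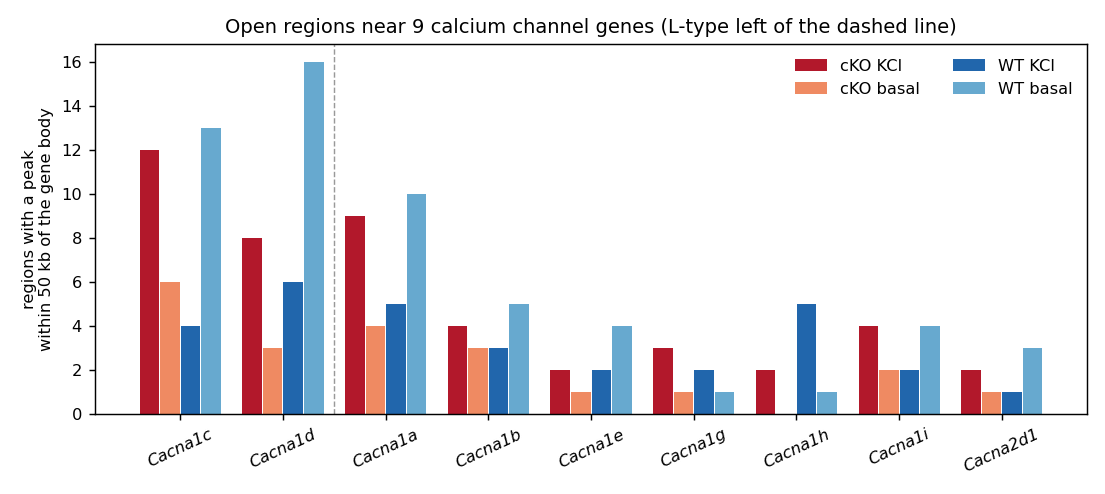
Bars give the number of regions with a peak within 50 kb of each gene body, by list, with the L-type genes left of the dashed line. *Cacna1d* reaches 16 in WT basal, and *Cacna1h* is highest in WT KCl at 5.

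Per length of window, the 2 L-type genes pooled were denser than the other 7 pooled in 3 lists, which did not hold gene by gene. L-type windows held 15.9 regions per Mb in cKO KCl, 7.14 in cKO basal, 7.93 in WT KCl and 22.99 in WT basal, and the windows of the other 7 genes held 11.1, 5.14, 8.57 and 12. Windows of all protein-coding genes held 13.2, 10.6, 10.4 and 17.2 per Mb. *Cacna1e* and *Cacna2d1*, although their bodies span 494 and 440 kb, had 1.68 to 6.73 and 1.85 to 5.55 regions per Mb across lists. *Cacna1c* and *Cacna1d*, at 610 and 451 kb, had 5.63 to 18.3 and 5.44 to 29.03. *Cacna1a*, which is not L-type, had 22.4 in cKO KCl, 9.96 in cKO basal, 12.4 in WT KCl and 24.9 in WT basal. These were above *Cacna1c* in every list and above *Cacna1d* in every list except WT basal.

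L-type regions were 43.5% of the channel gene regions in cKO KCl (20 of 46, 95% interval 28.9 to 58.9), 42.9% in cKO basal (9 of 21, 21.8 to 66.0), 33.3% in WT KCl (10 of 30, 17.3 to 52.8) and 50.9% in WT basal (29 of 57, 37.3 to 64.4). The 4 intervals overlap. Whether L-type and other genes differed in how their regions were spread over the lists was not tested. Overlap of intervals does not decide it, and some regions are counted in several lists. With the gene body alone the L-type share was 51.6% in cKO KCl, 53.3% in cKO basal, 55.6% in WT KCl and 53.7% in WT basal.

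The comparison of cKO KCl with WT KCl asks how loss of Brg1 changes open chromatin in depolarised neurons. The channel genes had 46 regions in cKO KCl and 30 in WT KCl, with 35 in cKO KCl alone, 19 in WT KCl alone and 11 in both. Of the regions in either list, those in cKO KCl alone were 53.8%, against 42.3% of all regions near protein-coding genes, and those in WT KCl alone were 29.2%, against 27%. cKO KCl held more regions at 7 of 9 genes, against 42% of all protein-coding genes, and fewer at *Cacna1h* alone, against 20.2%. *Cacna1e* had 2 in both lists, and 8262 of all 21883 protein-coding genes also had as many in both. The cKO list gave 60.5% of the regions of both lists (48.6 to 71.6), 66.7% at L-type genes and 56.5% at the others, and 55.9% near all genes. Here and below, such a share is over the summed counts of the 2 lists. A region in both lists counts for each, which the interval does not take into account. With lists of equal length, cKO KCl held more regions at 6 genes (29.4% of all genes) and fewer at 3 (29.2%), *Cacna1b*, *Cacna1e* and *Cacna1h*, and gave 55.2% of the regions (42.6 to 67.4), against 50.2% near all genes.

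The comparison of cKO basal with WT basal asks the same without KCl. The channel genes had 21 regions in cKO basal and 57 in WT basal, with 16 in cKO basal alone, 52 in WT basal alone and 5 in both. Those in WT basal alone were 71.2% of the regions in either list, against 51.8% of all regions near protein-coding genes, and those in cKO basal alone were 21.9%, against 21.8%. cKO basal held fewer regions at 8 of 9 genes, against 57.3% of all genes, and more at 0 of 9, against 11.4%. *Cacna1g* had 1 in both lists, and 6853 of all 21883 genes also had as many in both. The shares of all genes count such ties, so they are not shares of the genes that differed. The cKO list gave 26.9% of the regions (17.5 to 38.2), 23.7% at L-type genes and 30% at the others, against 38.1% near all genes, which lies just inside the interval. At equal list length the channel genes had 21 in cKO basal and 27 in WT basal, or 43.8% (29.5 to 58.8), against 49.9% near all genes. There, 5 genes had fewer regions in cKO basal (29.8% of all genes), *Cacna1a* and *Cacna1g* had more (29.1%), and *Cacna1b* and *Cacna1h* as many.

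Depolarisation of WT neurons is addressed by WT KCl against WT basal. The channel genes had 30 regions in WT KCl and 57 in WT basal, with 19 in WT KCl alone, 46 in WT basal alone and 11 in both. Those in WT KCl alone were 25% of the regions in either list, against 21.5%, and those in WT basal alone 60.5%, against 52.3%. WT KCl gave 34.5% of the regions (24.6 to 45.4), 25.6% at L-type genes and 41.7% at the others, against 37.8% near all genes. *Cacna1g* and *Cacna1h* had more regions in WT KCl and the other 7 genes fewer, against 11.3% and 57.2% of all genes. Of all 21883 genes, 6911 had as many in both lists. Apart from chr17:25405684-25405920 inside *Cacna1h*, the WT KCl regions of *Cacna1g* and *Cacna1h* lay outside the gene bodies. At equal list length the order turned, with 30 in WT KCl and 27 in WT basal, or 52.6% (38.97 to 66.02), against 49.9% near all genes. *Cacna1g*, *Cacna1h*, *Cacna1d* and *Cacna1a* then had more regions in WT KCl (4 genes, against 30.1% of all genes), 4 had fewer (29%) and *Cacna1b* as many.

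In cKO neurons the same step is cKO KCl against cKO basal. The channel genes had 46 regions in cKO KCl and 21 in cKO basal, with 37 in cKO KCl alone, 12 in cKO basal alone and 9 in both. Those in cKO KCl alone were 63.8% of the regions in either list, against 41.9%, and those in cKO basal alone 20.7%, against 27.4%. All 9 genes had more regions in cKO KCl, against 42.2% of all genes, and 0 of 9 fewer, against 20.1%. Of all 21883 genes, 8257 had as many in both lists. cKO KCl gave 68.7% of the regions (56.2 to 79.4), 69.0% at L-type genes and 68.4% at the others, against 55.5% near all genes. At equal list length the channel genes had 37 in cKO KCl and 21 in cKO basal, or 63.8% (50.1 to 76.01), against 50.2% near all genes, which lies just inside the interval. More regions then stood at 7 genes (30% of all genes), and fewer at *Cacna1b* (2 and 3) and *Cacna1e* (0 and 1), against 28.4%. The 4 comparisons share lists and are not separate observations.

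**Figure D5:**
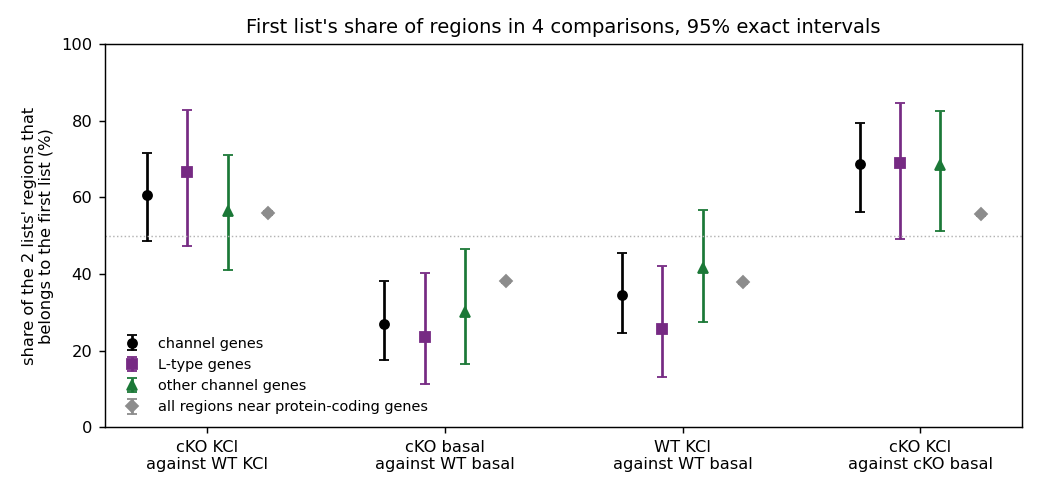
The y axis gives the percentage of the summed region counts of 2 lists that belongs to the one named first, for each comparison, with exact 95% intervals. The channel gene values lie at 60.5, 26.9, 34.5 and 68.7%, on the same side of 50% as the values of all regions near protein-coding genes.

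Whether KCl gave the same new regions in both genotypes was asked of the presence patterns. Exactly the 2 KCl lists shared no channel gene region, 0 of 113, which allows a share of up to 2.65%, against 1.39% of all regions near protein-coding genes. None had a peak in exactly the 2 basal lists either, 0 of 113, against 1.98%. At this number of regions such shares were not detectable. The 3 regions in exactly the 2 cKO lists were the *Cacna1c* promoter region, the intragenic *Cacna1d* region and the end of *Nacc1*, a transcriptional regulator gene in the *Cacna1a* window (chr8:84687437-84688016, folds of 3.16 in cKO KCl and 3.29 in cKO basal). Regions in cKO KCl and WT basal alone numbered 8 (7.08%), against 3.93% of all regions near genes. They were 3 of 83 at equal list length, against 2.75%, and 4 of 78 with the gene body alone, against 4.06%. The 7 regions in every list except cKO basal (4 of 78 with the gene body alone, against 2.82%) stood against 2.42%, the 2 in every list except WT KCl (the *Cacna1a* end and the *Cacna2d1* start) against 2.56%, and the 1 in every list except WT basal (the *Cacna1b* start) against 0.733%. There were 0 in every list except cKO KCl, against 0.756%, and 0 in cKO basal and WT KCl alone, against 0.744%.

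The other calcium channel subunit genes, 17 in number and fixed as a list with earlier results known, had 64 regions in cKO KCl, 29 in cKO basal, 31 in WT KCl and 81 in WT basal. cKO KCl held more regions than WT KCl at 14 of 17 genes, against 42% of all genes, and fewer at *Cacng1* (0 and 1), against 20.2%. As above, the shares of all genes in these comparisons count genes with as many regions in both lists. *Cacna2d3*, an auxiliary subunit gene, had 9 in cKO KCl and 3 in WT KCl, and the retinal L-type pore gene *Cacna1f* 7 and 2. The others with a difference of 3 or more were *Cacna2d4* (6 and 2), *Cacnb1* (6 and 2), *Cacnb3* (6 and 3), *Cacna1s*, the skeletal muscle L-type pore gene (4 and 1), and *Cacng7* (4 and 1).

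In cKO basal against WT basal, 16 of the 17 had fewer regions, against 57.3% of all genes, and *Cacnb2* more (2 and 1), against 11.4%. *Cacna2d3* had 1 and 13, *Cacng2*, which encodes the AMPA receptor partner stargazin, 2 and 9, and *Cacng4* 1 and 7. *Cacna1f* (3 and 7), *Cacna2d4* (2 and 6), *Cacnb1* (1 and 5), *Cacnb4* (3 and 7), *Cacng1* (0 and 4), *Cacng3* (1 and 4) and *Cacng7* (1 and 4) had fewer by 3 or more as well. In WT KCl against WT basal, 16 had fewer, against 57.2% of all genes, and *Cacnb2* was equal, with *Cacna2d3* at 3 and 13, *Cacng2* at 3 and 9, and *Cacng4* and *Cacna1f* at 2 and 7 each. Also fewer by 3 or more were those of *Cacna1s* (1 and 5), *Cacna2d4* (2 and 6), *Cacnb1* (2 and 5), *Cacng1* (1 and 4), *Cacng3* (1 and 4) and *Cacng7* (1 and 4).

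In cKO KCl against cKO basal, 13 had more regions, against 42.2% of all genes, *Cacnb2* fewer (1 and 2), against 20.1%, and 3 as many. The differences of 3 or more were at *Cacna2d3* (9 and 1), *Cacnb1* (6 and 1), *Cacna1f* (7 and 3), *Cacna2d4* (6 and 2), *Cacnb4* (6 and 3) and *Cacng7* (4 and 1). The median net difference over the 17 genes was 1, -3, -3 and 2 regions in the 4 comparisons in the order given, and over the 9 channel genes 1, -2, -2 and 2, beside 0, -1, -1 and 0 over all 21883 protein-coding genes. With lists of equal length, cKO KCl held more regions than WT KCl at 11 of the 17 and fewer at 2, cKO basal more than WT basal at 4 and fewer at 11, WT KCl more than WT basal at 3 and fewer at 11, and cKO KCl more than cKO basal at 10 and fewer at 3. Of all protein-coding genes, 28.4 to 30.1% stood on each side in these comparisons. Several of these genes, such as *Cacng6*, *Cacng7* and *Cacng8*, lie side by side on chromosome 7, so that their windows overlap.

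Among 128 genes whose body was between 0.8 of its length and its length divided by 0.8, the counts most like those of *Cacna1c* belonged to *Alk* (11, 7, 6 and 10 in cKO KCl, cKO basal, WT KCl and WT basal) and *Prkce* (11, 4, 4 and 17), at a summed absolute difference of 7 regions each, and *Enox1* (8, 5, 5 and 11), at 8. Among 239 genes of like length, those closest to *Cacna1d* were *Kirrel3* (10, 2, 6 and 16), at 3, and *Stard13* (8, 3, 3 and 13) and *Zfp407* (8, 2, 7 and 12), at 6 each. The measure compares 4 counts per gene.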

How the data were processed

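Per the submitters' processing notes, Bowtie2 and MACS2 were used with GRCm38 (mm10). Not given in the sources used here are their versions, duplicate removal, the Tn5 offset, the fragment range taken as nucleosome-free and the way both libraries of a group were combined. The authors deposited 1 headerless narrowPeak list per group, which names its genotype and treatment. Its columns hold the authors' score, the fold over local background (a ratio), the −log10 of p and q, and the summit offset in bp, all of which served only within their own list.

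Python 3.11.15 with pandas 2.3.3 and scipy 1.17.1 was used. Only autosomes and the chromosomes X and Y were kept, which dropped 5 peaks per list. Peaks that overlapped by at least 1 bp were merged. Pileup and background were solved from the fold, (pileup + 1)/(background + 1), and the Poisson p-value, with a whole pileup for 100% of peaks within 0.001 in −log10 p. Read totals are not in the files, so this is a relative depth. Genes were the 21883 protein-coding genes of the RefSeq table of GRCm38.p6, and all 9 members and 17 other subunit genes matched by symbol. Start windows and sequences came from RefSeq, GRCm38.p6. Shares have exact Clopper-Pearson 95% intervals, and a count of 0 a limit of 3. Merging, counting and the pileup step were tested on simulated data. Columns of unmatched samples numbered 0.

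The members and lists were chosen with earlier results of these data known. All 9 genes are named, with each region at their starts or ends, the region of highest fold of each gene, and each region shared by all lists or by exactly the lists of 1 genotype or 1 treatment. Other subunit genes are named at a difference of 3 or more regions. The intragenic regions in 3 lists, the second *Cacna2d1* region and the regions at *Ier2* were described after their values were seen. Alternatives were windows of 0, 10 and 100 kb, −log10 q of at least 2 or 3, equal list lengths, unmerged peaks, removal of other genes' ends, a stricter overlap, and gene ends within 2 kb.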

Additional observations from a re-analysis of the deposited data

Results flagged for a closer look

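With 1 list per group, a difference in the KCl effect between genotypes can be seen only as opposite signs, and it was not tested. The channel genes had a net 25 regions more in cKO KCl than in cKO basal, and a net of -27 in WT KCl against WT basal. The L-type genes had 11 in cKO and -19 in WT, and the other 7 genes 14 in cKO and -8 in WT.

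By gene, the net KCl difference was 6 in cKO and -9 in WT at *Cacna1c*, 5 and -10 at *Cacna1d*, and 5 and -5 at *Cacna1a*. It was 1 in cKO and -2 in WT at each of *Cacna1b*, *Cacna1e* and *Cacna2d1*, and 2 and -2 at *Cacna1i*. *Cacna1g* (2 and 1) and *Cacna1h* (2 and 4) had the same sign in both genotypes, with most of their WT KCl regions outside the gene bodies. The lists as a whole, which differ in length, had a net of 5178 in cKO and -13721 in WT. Of all protein-coding genes, 42.2% had more regions in cKO KCl than in cKO basal, and 57.2% had fewer in WT KCl than in WT basal. The share of all genes with both was not computed, so opposite signs are not shown to be particular to the channel genes. At equal list length the signs over all channel genes were no longer opposite, with a net of 16 in cKO and 3 in WT, and neither were those of the other 7 genes, with 9 and 6. They were also no longer opposite at *Cacna1d* (4 and 1), *Cacna1a* (5 and 2), *Cacna1b* (-1 and 0) and *Cacna1e* (-1 and -1). They stayed opposite for the L-type genes together (7 and -3), at *Cacna1c* (3 and -4), at *Cacna1i* (2 and -1) and at *Cacna2d1* (1 and -1). At that length 30% of all protein-coding genes had more regions in cKO KCl than in cKO basal. In WT KCl against WT basal, 29% had fewer, and the share with both was again not computed.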

How the results depend on the processing

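Of 111 values recomputed under an alternative, 98 were labelled unchanged, 12 moved and 1 reversed. Some L-type shares labelled unchanged passed from the smaller to the larger part of the channel gene regions, or back. With a 10 kb window the L-type share was 51.6% in cKO KCl, 56.25% in cKO basal and 52.6% in WT KCl. The main values were 43.5%, 42.9% and 33.3%. In WT basal the share fell from 50.9% to 43.6% with a 100 kb window. Which set held more regions thus depended on the window. Equal list length reversed WT KCl against WT basal (52.6% of regions from WT KCl) and moved cKO basal against WT basal to 43.8%. Of its 83 channel gene regions, 1 was in both KCl lists alone (1.93% of all regions near genes), 0 in both WT lists alone (1.62%) and 3 in cKO KCl and WT basal alone (2.75%). This alternative removes peaks from the 3 longer lists by its construction. With the gene body alone, L-type genes held 55.6% of the WT KCl regions, and of 78 regions 4 were in cKO KCl and WT basal alone (4.06% near all genes) and 4 in every list except cKO basal (2.82%). A 10 kb window gave 4 and 4 of 82 (4.02% and 2.67%). A 100 kb window gave 2 of 156 in both WT lists alone (1.89%). With −log10 q of at least 3 there were 0 of 91 of these (1.79%) and 4 in every list except cKO basal (2.68%). The share from cKO KCl against cKO basal ranged from 63.8 to 70.4% over 9 alternatives, and that of cKO KCl against WT KCl from 55.2 to 65.6%. The number of regions at channel gene ends was 5 with limits of 1 and 2 kb. No paired analysis was possible because each group has 1 list, which carries no replicate number, and no library could be left out. A median summit of 30 to 33 fragments limits every presence call.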

Other observations

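Regions with a peak in every list except cKO basal were singled out after the values were seen. They numbered 7 of 113 near the channel genes (6.19%, 95% interval 2.53 to 12.3), against 2.42% of all regions near protein-coding genes. They comprised 2 inside *Cacna1d*, 1 inside *Cacna1c*, 1 inside *Cacna1a*, 2 in the *Cacna1a* flank and 1 at the end of *Rps19bp1* in the *Cacna1i* window. With lists of equal length there were 5 of 83, against 2.24%, and with the gene body alone 4 of 78, against 2.82%. As a share of its own list, cKO basal had 1.06 channel gene regions per 1000 (0.654 to 1.62), beside 1.84 in cKO KCl (1.34 to 2.45), 1.53 in WT KCl (1.03 to 2.18) and 1.71 in WT basal (1.29 to 2.21). These intervals overlap.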
